A study of Mus musculus with 7 samples.

Results

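The genes described here encode 10 proteins that modify, fold and trim collagen on its way out of the cell, and they were read in all 7 libraries of sorted mouse heart fibroblasts. They were taken by gene name from a table of 54735 gene symbols. All 10 were present, and all 10 were among the 17636 genes that passed the filter on low counts. The set held 4 subunit genes of prolyl 4-hydroxylase (P4ha1, P4ha2, P4ha3 and P4hb), 3 genes for collagen folding (Serpinh1, Fkbp10 and Crtap) and 3 genes for the removal of propeptides (Pcolce, Bmp1 and Adamts2).

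Collagen chains are changed extensively before they leave the endoplasmic reticulum. Prolyl 4-hydroxylase, a complex of catalytic alpha subunits with the beta subunit protein disulfide isomerase, hydroxylates prolines and so makes the triple helix stable at body temperature. Chaperones hold the helix until secretion, and proteases outside the cell then remove the propeptides so that fibrils can form. In the heart, fibroblasts make most of the fibrillar collagen, and loss of several of these enzymes and chaperones causes brittle bone or fragile skin disease.

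The 3 groups differed in the traced lineage and in age. Each lineage came from its own driver line of mice, so lineage and mouse line cannot be told apart here. Postn P7 (n = 2) held cells of PostnMCM;R26eGFP mice at 7 days, Tcf21 P7 (n = 2) cells of Tcf21MCM;R26eGFP mice at 7 days, and Tcf21 P30 (n = 3) cells of Tcf21MCM;R26eGFP mice at 30 days. In every group a tamoxifen-dependent recombinase (MCM), driven by the named gene, turned on green fluorescence, and cells with that fluorescence were sorted from hearts of male and female mice that had been pooled. The tracing marks cells that expressed the driver while tamoxifen was present, not cells that express it at sorting, and the time of tamoxifen was not given in the sources used here. No label says whether libraries came from separate animals or sorts, so the p-values given here rest on a spread between libraries that may be technical.

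Library totals ranged from 15207835 to 18519528 counts. Postn was at 756 to 907 normalised CPM in Tcf21 P30 and at 2995 to 4549 CPM in the day 7 groups, and Tcf21 was at 271 to 428 CPM in all 7 libraries. Esr1 was at 3.65 and 2.75 CPM in Postn P7 and at 173 CPM in each Tcf21 P7 library (-5.74 ± 0.21, adjusted p = 7.3e-05). The cause of this difference was not tested. The defining fibroblast marker Pdgfra ranged from 660 to 1306 CPM. Summed over 10 fibroblast markers the libraries held 35400 to 48700 CPM, but the make-up of this sum differed between the ages. Col3a1 stood at 19790 and 19830 CPM in Tcf21 P7 and at 9106, 11330 and 10330 CPM in Tcf21 P30. Gsn stood at 3202 and 3289 CPM against 13720, 18120 and 15950 CPM. Of the 10, 3 passed the test as higher at P30 (Ddr2, Gsn and Pdgfra) and 3 as lower (Col1a1, Col1a2 and Col3a1). The shares over all genes were 16.7% and 15%. Postn P7 replicate 1 and Tcf21 P30 replicate 1 stood apart in the sum of 12 endothelial markers, with 1800 and 4260 CPM against 1100 to 1360 CPM in the other 5 (these are the endothelial-rich libraries below), and none of the 12 was at 0 throughout. Both also exceeded the rest of their group in the sums of pericyte markers (2090 against 1540, and 1470 against 836 and 882 CPM). The same held for cardiomyocyte markers (1270 against 661, and 981 against 503 and 558 CPM) and erythroid markers (366 against 68, and 620 against 181 and 291 CPM). It also held for smooth muscle markers (1110 against 947, and 1150 against 587 and 586 CPM). Epicardial and mesothelial markers were higher as well (67.8 against 6.47, and 18.2 against 2.09 and 1.92 CPM). In Postn P7 the macrophage and myeloid sum (374 against 507 CPM) and the Schwann and glia sum (15.4 against 28.2 CPM) went the other way. The name endothelial-rich is thus a label for libraries high in markers of several cell types. All 10 collagen processing genes were at their lowest Tcf21 P30 level in that replicate 1, as were 37.6% of all genes tested, and 9 of 10 were lower in replicate 1 than in replicate 2 of Postn P7, as were 52.3% of all genes. The part of other cell types in these low values was not tested. Fewer cells of a type and less RNA per cell cannot be told apart in bulk libraries.

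The alpha subunits carry the clearest difference in the set, and the sequences around their start sites are shown to set the 3 genes side by side. The windows run from 250 bases before to 50 bases after the RefSeq start of transcription in GRCm38.p6, all on the plus strand, at chr10:59323046-59323345 for P4ha1, chr11:54100674-54100973 for P4ha2 and chr7:100285270-100285569 for P4ha3. Capitals mark 2 motifs on either strand, the core letters ACGTG or GCGTG that hypoxia-inducible factors recognise and the GC box GGGCGG.
P4ha1: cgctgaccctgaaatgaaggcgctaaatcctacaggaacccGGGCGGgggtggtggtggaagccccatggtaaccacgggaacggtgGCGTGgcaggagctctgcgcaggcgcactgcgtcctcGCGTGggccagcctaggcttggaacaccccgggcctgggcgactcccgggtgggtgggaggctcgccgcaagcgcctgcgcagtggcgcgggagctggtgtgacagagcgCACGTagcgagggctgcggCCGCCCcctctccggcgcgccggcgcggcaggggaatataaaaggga
P4ha2: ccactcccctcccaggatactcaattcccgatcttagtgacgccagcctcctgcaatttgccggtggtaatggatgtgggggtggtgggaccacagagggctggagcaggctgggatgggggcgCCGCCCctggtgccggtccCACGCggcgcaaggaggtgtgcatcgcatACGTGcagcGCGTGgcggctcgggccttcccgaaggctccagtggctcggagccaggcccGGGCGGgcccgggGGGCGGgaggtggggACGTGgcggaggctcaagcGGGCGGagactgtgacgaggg
P4ha3: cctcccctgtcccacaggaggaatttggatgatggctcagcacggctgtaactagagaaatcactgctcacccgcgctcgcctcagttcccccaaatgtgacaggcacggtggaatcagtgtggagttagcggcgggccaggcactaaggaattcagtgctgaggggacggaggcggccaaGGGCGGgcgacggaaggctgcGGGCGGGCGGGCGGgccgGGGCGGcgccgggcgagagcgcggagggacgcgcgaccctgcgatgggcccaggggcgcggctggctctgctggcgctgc
The hypoxia core letters occurred 3 times in the P4ha1 window, 4 times in that of P4ha2 and 0 times in that of P4ha3. They are found in 43.8% of all 32851 promoter windows of that length. The GC box occurred 2, 4 and 5 times, with 3 of the P4ha3 matches overlapping one another, and it is found in 35.7% of all windows. The 3 windows had like GC contents of 70.3%, 70.3% and 69.3%, against a median of 52.7% over all windows. Among the other members with a window, the hypoxia core letters occurred 3 times each in P4hb and Crtap. They occurred 1 time each in Serpinh1 and Pcolce and 0 times in Adamts2. A match of letters is a description of the sequence and not evidence that a factor binds there.

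With age, the alpha subunits moved in opposite directions. P4ha3 (chromosome 7, 100285520 to 100319699 in GRCm38, protein coding), the least abundant alpha subunit, stood at 44.9 and 44.0 CPM in the Tcf21 P7 libraries and at 3.98, 5.52 and 6.92 CPM in the Tcf21 P30 libraries. The P30 libraries lay far below both P7 libraries, on 63 to 126 counts each. The fitted difference was -3.02 ± 0.22 on the log2 scale, 0.124 times the P7 level (adjusted p = 1e-04). P4ha1 (chromosome 10, 59323296 to 59373304), the main alpha subunit of most tissues, was at 172 and 176 CPM in Tcf21 P7 and rose to 235, 277 and 255 CPM in Tcf21 P30. No P30 library overlapped a P7 library, and the increase was 0.56 ± 0.10, or 1.47-fold (adjusted p = 0.0042). P4ha2 (chromosome 11, 54100095 to 54131665), the alpha subunit known from cartilage and bone, was at 135 and 130 CPM at P7 and at 116, 160 and 138 CPM at P30. Its libraries overlapped between the ages, and the difference of 0.06 ± 0.16 did not pass the test (adjusted p = 0.80).

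Because P4ha3 fell and P4ha1 rose, the make-up of the alpha subunit transcripts differed between the ages. Levels per exon length, normalised CPM per kilobase of exon, put the genes on a common scale. The length joined all annotated exons of a gene, over all its transcripts. Shares, ranks and ratios between genes, here and below, thus depend on the annotation and are not counts of transcripts. On that scale P4ha3 accounted for 18.4% and 18.1% of the 3 alpha subunits in the Tcf21 P7 libraries and for 1.65%, 1.86% and 2.56% in the Tcf21 P30 libraries. P4ha1 accounted for 53.7% and 55.2% at P7 and for 74.2%, 71.1% and 71.8% at P30. The share of P4ha2 lay between 23.7% and 27.9% in all 7 libraries. Summed, the alpha subunits were at 77.8 and 77.6 per kilobase at P7 and at 77.1, 94.6 and 86.4 per kilobase at P30, so the sums of the ages overlapped. An exact permutation test of the P4ha3 share between the ages, with the one-sided p doubled, gave p = 0.2. With 2 libraries against 3 this doubling allows no smaller value, so the test cannot decide whether the shares differ.

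**Figure D1:**
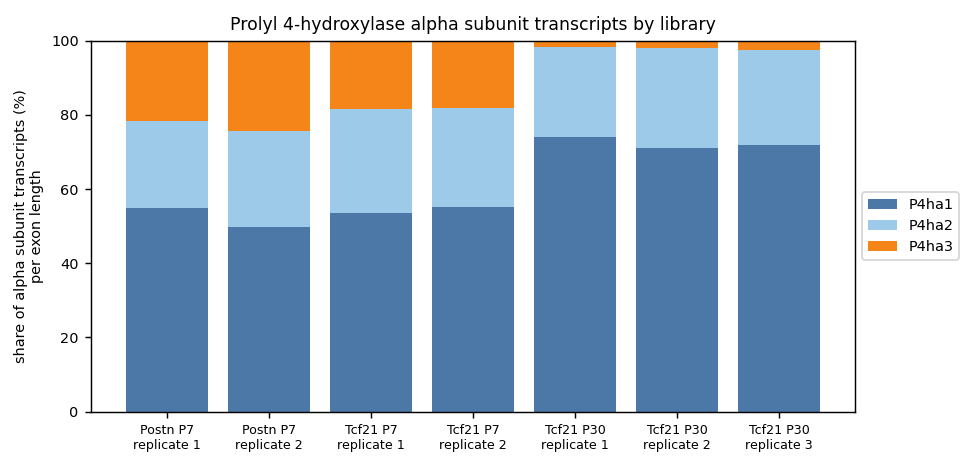
Shares of P4ha1, P4ha2 and P4ha3 among the prolyl 4-hydroxylase alpha subunit transcripts (y axis, percent, on the level per exon length) in each of the 7 libraries (x axis). The P4ha3 segment spans 18.1% to 24.4% in the 4 libraries of day 7 and 1.65% to 2.56% in the 3 libraries of day 30.

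P4hb (chromosome 11, 120560298 to 120573253) encodes the beta subunit, protein disulfide isomerase, which also folds many other secreted proteins. It was measured at 1153 and 1152 CPM in Tcf21 P7 and at 896, 1120 and 974 CPM in Tcf21 P30. The P30 libraries were all lower, but the difference of -0.21 ± 0.13 did not pass the test (adjusted p = 0.24). Per exon length P4hb exceeded the summed alpha subunits in each library, by 5.19-fold in both Tcf21 P7 libraries, by 4.96- and 4.85-fold in the Postn P7 libraries and by 4.06-, 4.14- and 3.94-fold in the Tcf21 P30 libraries. This ratio was lower in all P30 libraries than in any library of day 7.

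Of the folding genes, 2 of 3 fell with age. Fkbp10 (chromosome 11, 100415697 to 100424824) encodes FKBP65, a prolyl isomerase of the endoplasmic reticulum that assists collagen folding. It was at 505 and 506 CPM in Tcf21 P7 and at 239, 354 and 299 CPM in Tcf21 P30, a decrease of -0.77 ± 0.16 (adjusted p = 0.0080). Fkbp10 overlaps Nt5c3b on the opposite strand, which was also lower at P30, at 140 and 130 CPM in Tcf21 P7 and 80, 104 and 88.9 CPM in Tcf21 P30. The strand setting of the counting was not given, so reads of the overlap cannot be assigned to either gene. Crtap (chromosome 9, 114375134 to 114390675), a subunit of the prolyl 3-hydroxylation complex, went from 275 and 269 CPM to 164, 210 and 182 CPM, a decrease of -0.56 ± 0.12 (adjusted p = 0.011). For both genes every P30 library lay below every P7 library. Serpinh1 (chromosome 7, 99345376 to 99353239) encodes HSP47, the collagen-specific chaperone. It was at 1634 CPM in each Tcf21 P7 library and at 1267, 1392 and 1405 CPM at P30. The P30 libraries were again lower, and the difference of -0.27 ± 0.10 missed the threshold (adjusted p = 0.063). It passed with library size alone as the scaling (adjusted p = 0.043), with DESeq2 (adjusted p = 0.02), with limma-voom (adjusted p = 0.042) and without the endothelial-rich libraries (adjusted p = 0.033).

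None of the 3 propeptide genes passed edgeR's test between the ages, nor with DESeq2, and none had an unadjusted p under 0.05, whereas 7652 of all 17636 genes had one. Bmp1 (chromosome 14, 70474558 to 70520234) encodes the procollagen C-proteinase. It was at 588 and 596 CPM in Tcf21 P7 and at 412, 560 and 518 CPM in Tcf21 P30 (-0.25 ± 0.14, adjusted p = 0.20). Adamts2 (chromosome 11, 50602084 to 50807573), the main procollagen N-proteinase, was at 1360 and 1369 CPM and at 935, 1292 and 1196 CPM (-0.26 ± 0.16, adjusted p = 0.26). Both were lower in each P30 library than in either P7 library. Pcolce (chromosome 5, 137605103 to 137613784) encodes an enhancer of the C-proteinase and went the other way, from 861 and 862 CPM to 904, 1286 and 1071 CPM (0.34 ± 0.16, adjusted p = 0.15). With Tcf21 P30 replicate 1 left out the increase of Pcolce passed, at 0.46 (adjusted p = 0.028), as it did without both endothelial-rich libraries (adjusted p = 0.0022) and with no filter on low counts (adjusted p = 0.043).

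In all, 4 of 10 genes passed the test between the ages, 1 higher (P4ha1) and 3 lower (P4ha3, Fkbp10 and Crtap) at P30, where 31.8% of all genes tested passed, 16.7% higher and 15% lower. In 7 of the 10 genes every P30 library lay below both P7 libraries and in 2 above them, against 29.9% and 31.8% of all genes. The median difference of the 10 was -0.26, against 0.03 over all genes. Without Tcf21 P7 replicate 1 or replicate 2 the sole gene of the 10 still called was P4ha3, while the difference of P4ha1 was 0.54 or 0.58 (adjusted p = 0.071 or 0.059). Without the same replicates the adjusted p of Fkbp10 was 0.071 or 0.074 and that of Crtap 0.10 or 0.089, and Crtap was also lost without Tcf21 P30 replicate 3 (adjusted p = 0.055). The Tcf21 P7 libraries lay closer together than those of the other groups, with a chi-squared per degree of freedom of 3.43, against 18.4 for the pair of Postn P7 and 9.9 to 38.1 for the pairs of Tcf21 P30. Without both endothelial-rich libraries, a fit with 1 Postn P7 library, the difference between the ages was 0.46 for Pcolce and -0.22 for Serpinh1. The sum of 14 macrophage and myeloid markers was lower at P30 too, at 660, 440 and 463 CPM against 1280 CPM in each Tcf21 P7 library. Of these markers 10 were called lower and none was at 0 throughout, and their part in the differences between the ages was not tested.

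**Figure D2:**
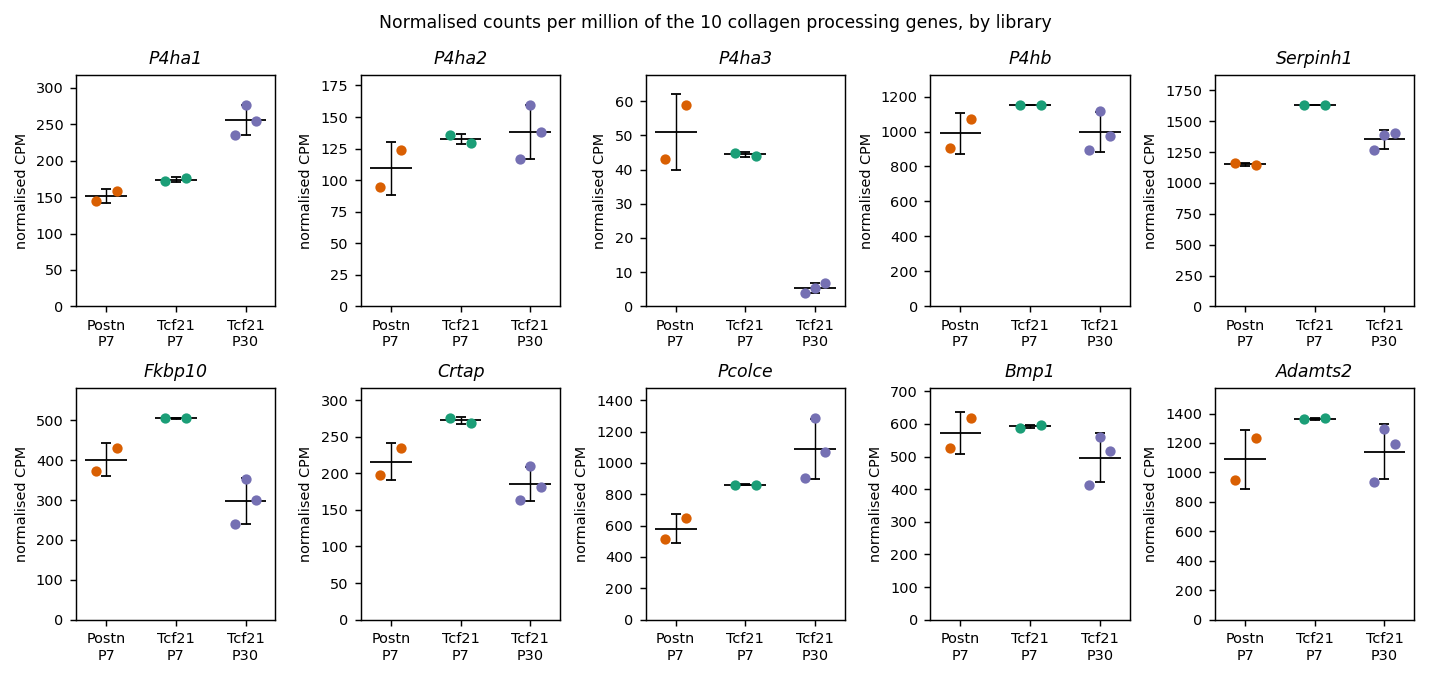
Normalised CPM (y axis, from 0, a separate scale in each panel) of the 10 genes in the 3 groups (x axis). Points are libraries, and bars are the group mean with the SD. P4ha3 drops from 44.0 to 44.9 CPM in Tcf21 P7 to 3.98 to 6.92 CPM in Tcf21 P30, P4ha1 rises, and Serpinh1 is lowest in Postn P7.

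Between the 2 lineages at day 7 the median difference of the 10 genes was -0.30, against 0.00 over all genes. Serpinh1 was called, with Postn P7 libraries at 1159 and 1144 CPM and Tcf21 P7 libraries at 1634 CPM each, a difference of -0.51 ± 0.11, or 0.705 times the Tcf21 P7 level (adjusted p = 0.025). It was the sole gene called of 10, at a background of 12% of all genes, 6.52% higher and 5.49% lower in Postn P7. The calls over all genes split into 1149 higher and 969 lower, against 1741 and 472 when scaled by library size alone and 1187 and 647 with upper-quartile factors. With upper-quartile factors its adjusted p was 0.052. Leaving out Postn P7 replicate 1 or 2 gave an adjusted p of 0.069 or 0.091, and leaving out Tcf21 P7 replicate 1 or 2 gave 0.21 or 0.22, while the difference itself stayed between -0.49 and -0.52 in these 4 fits. Pcolce had a larger difference of -0.57 ± 0.18 that missed the threshold (adjusted p = 0.074), its Postn P7 libraries standing at 514 and 647 CPM, below 861 and 862 CPM. Pcolce passed with DESeq2 (adjusted p = 0.022), with both groups alone in the fit (adjusted p = 0.026), with no filter on low counts (adjusted p = 0.0012) and without the endothelial-rich libraries (adjusted p = 0.028).

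The remaining genes did not pass between the lineages. In Postn P7, Fkbp10 was at 372 and 431 CPM (-0.33 ± 0.17, adjusted p = 0.24) and Crtap at 198 and 234 CPM (-0.33 ± 0.14, adjusted p = 0.14). P4ha1 was at 144 and 158 CPM (-0.20 ± 0.11), P4ha2 at 94.4 and 124 CPM (-0.28 ± 0.17), P4hb at 907 and 1071 CPM (-0.22 ± 0.14) and Adamts2 at 948 and 1231 CPM (-0.33 ± 0.18), with adjusted p of 0.24 to 0.32. In 8 of the 10 genes both Postn P7 libraries lay below both Tcf21 P7 libraries, and in none of the 10 above, against 32.5% and 31.4% of all genes tested. Scaled by library size alone, where the median log2 difference over all genes was 0.12 in place of 0.00, 7 of 10 lay below and 1 above, against 23.4% and 40.1% of all genes. P4ha3 overlapped, its Postn P7 libraries at 43.2 and 58.9 CPM (0.20 ± 0.23, adjusted p = 0.61), and so did Bmp1, at 526 and 618 CPM (-0.05 ± 0.15, adjusted p = 0.86). The share of P4ha3 among the alpha subunits was 21.5% and 24.4% in Postn P7, above the 18.4% and 18.1% in Tcf21 P7. Markers of other cells moved between the lineages too. The same macrophage and myeloid sum was 1280 CPM in each Tcf21 P7 library but 374 and 507 CPM in those of Postn P7. In Postn P7 10 of the 14 were called lower, against 5.49% of all genes. Their part in the differences above was not tested. The sum of 8 pericyte markers, none at 0 throughout, was 2090 and 1540 CPM against 1050 and 1010 CPM. Of the 8, 1 (Pdgfrb) was called higher, against 6.52% of all genes.

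Postn P7 and Tcf21 P30 differ in lineage and age together, which cannot be told apart in this comparison, and both it and the one above share libraries with the comparison of ages. P4ha3 was 9.28-fold higher in Postn P7 (3.21 ± 0.23, adjusted p = 6.6e-05). P4ha1 was lower (-0.76 ± 0.10, adjusted p = 0.0011), and Pcolce was lower as well (-0.90 ± 0.17, 0.534 times the Tcf21 P30 level, adjusted p = 0.0059). These 3 of 10 passed, 1 higher and 2 lower, where 24.2% of all genes passed, 11.7% higher and 12.5% lower. Scaled by library size alone, the split over all genes was 2802 higher and 1725 lower, against 2070 and 2206. P4hb (-0.01 ± 0.13, adjusted p = 0.96) and Adamts2 (-0.07 ± 0.17, adjusted p = 0.82) had the smallest differences. Serpinh1 was lower in both Postn P7 libraries than in any Tcf21 P30 library, yet -0.23 ± 0.10 did not pass (adjusted p = 0.12) unless Tcf21 P30 replicate 1 (adjusted p = 0.046) or both endothelial-rich libraries (adjusted p = 0.034) were left out. Fkbp10 (0.43 ± 0.16, adjusted p = 0.082) was higher in both Postn P7 libraries than in any Tcf21 P30 library. It passed with library size alone (adjusted p = 0.027), no filter (adjusted p = 0.0034), DESeq2 (adjusted p = 0.041) and without Tcf21 P30 replicate 2 (adjusted p = 0.023). Without both endothelial-rich libraries, which leaves 1 Postn P7 library, its difference was 0.40. P4ha2 (-0.34 ± 0.16, adjusted p = 0.17) passed without Tcf21 P30 replicate 1 (adjusted p = 0.04). In 2 of the 10 genes the Postn P7 libraries all lay above those of Tcf21 P30 and in 3 all below, against 24.7% and 25.9% of all genes.

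**Figure D3:**
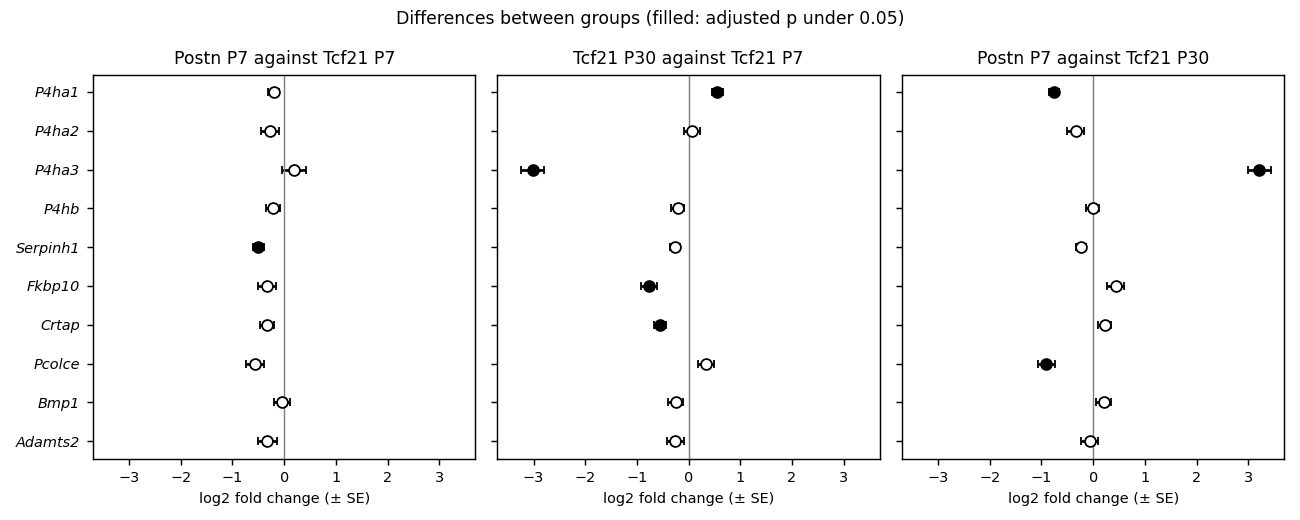
Log2 fold change with its standard error (x axis) of the 10 genes (y axis) in the 3 comparisons, the first-named group against the second. Filled points passed an adjusted p of 0.05, which were 1, 4 and 3 of the 10 genes, and the differences of P4ha3, -3.02 and 3.21, lie farthest from 0.

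In order of level per exon length, the ranks were 1 for Serpinh1, 2 for P4hb, 3 for Pcolce, 9 for P4ha2 and 10 for P4ha3 in each of the 3 groups. Mean levels in Tcf21 P7 ran from 669 ± 0.0625 per kilobase (SD, n = 2) for Serpinh1, 403 ± 0.198 for P4hb and 225 ± 0.230 for Pcolce to 14.2 ± 0.209 for P4ha3. In Tcf21 P30, Pcolce stood at 284 ± 50.01 (SD, n = 3) and P4hb at 348 ± 39.6 per kilobase. These neighbours overlapped across libraries, but within each P30 library P4hb was the higher. Fkbp10 had rank 4 in both day 7 groups (137 ± 14.2 in Postn P7 and 172 ± 0.236 in Tcf21 P7). In Tcf21 P30 it had rank 6 (101 ± 19.6), behind Adamts2 (122 ± 19.8) and Crtap (105 ± 13.0). Within each P30 library Adamts2 exceeded Fkbp10. Crtap did so in replicates 1 and 3 but not in replicate 2 (118.4 against 120.5).

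The main clients of this machinery, the fibrillar collagens, fell further with age than most of the 10 genes. Of 11 fibrillar collagen genes, 8 were lower and 1 was higher in Tcf21 P30 than in Tcf21 P7, with a median of -0.95. The shares over all genes tested were 15% lower and 16.7% higher. Col1a1 fell by 1.00 (SE 0.15, adjusted p = 0.0023), Col1a2 by 0.94 (SE 0.14, adjusted p = 0.0017) and Col3a1 by 0.95 (SE 0.15, adjusted p = 0.0024) on the log2 scale. Among the called genes the 4 largest changes were those of Col24a1 (-4.80 ± 0.17), Col11a1 (-3.59 ± 0.39), Col11a2 (-1.70 ± 0.38) and Col1a1. Col5a3 was the gene that rose (0.93 ± 0.12, adjusted p = 0.0012). Col11a2 and Col5a1 lost their calls without either Tcf21 P7 library, with adjusted p of up to 0.099 and 0.12, and Col11a2 also without Tcf21 P30 replicate 3 and with the replicate number as a block. Serpinh1 was therefore set against Col1a1, Col1a2 and Col3a1 summed per exon length. There were 15.4 and 15.6 units of Serpinh1 per 100 units of collagen transcript in Tcf21 P7, 15.2 and 12.2 in Postn P7 and 26.6, 23.6 and 25.3 in Tcf21 P30. For Pcolce the ratio was 5.18 and 5.25 in Tcf21 P7 and 12.2, 13.9 and 12.3 in Tcf21 P30, and for P4ha1 it was 0.960 and 0.996 against 2.94, 2.79 and 2.73. Fkbp10 changed least against its clients, from 3.96 and 4.01 to 4.18, 4.99 and 4.48. In 9 of 10 genes every P30 ratio exceeded both P7 ratios, and in P4ha3 every P30 ratio was lower. The same holds for 79.2% of all genes (higher) and 4.35% (lower), since the denominator fell, so the 9 genes are not set apart from other genes by this count.

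**Figure D4:**
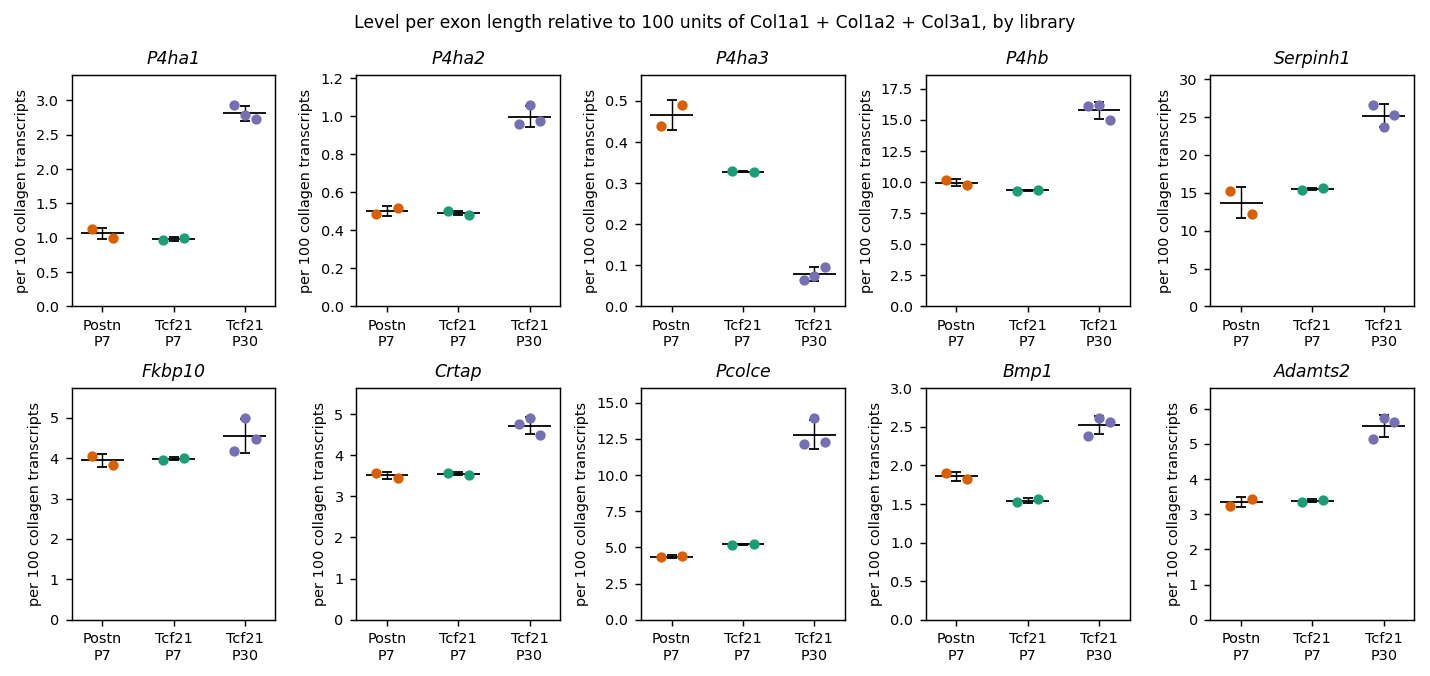
Level per exon length of each of the 10 genes relative to 100 units of Col1a1, Col1a2 and Col3a1 summed (y axis, from 0, a separate scale in each panel) in the 3 groups (x axis). Points are libraries, and bars are the mean with the SD. Serpinh1 stands at 15.4 and 15.6 in Tcf21 P7 and at 23.6 to 26.6 in Tcf21 P30, whereas P4ha3 falls from 0.330 and 0.327 to 0.0651 to 0.0971.

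Other genes of collagen maturation were read from lists of the same pathway. Of 8 further genes for propeptide processing 6 were tested, with a median of -0.03 between the ages. There 1 of them was higher and 2 were lower, against 16.7% and 15% of all genes. Pcolce2, a second enhancer of the C-proteinase, was at 110 and 117 CPM in Tcf21 P7 and at 368, 490 and 466 CPM in Tcf21 P30 (1.96 ± 0.19, adjusted p = 0.00032), and its Postn P7 libraries were lower, at 43.0 and 62.8 CPM (-1.10 ± 0.20 against Tcf21 P7, adjusted p = 0.017). Both enhancer genes thus had their highest level in Tcf21 P30 and their lowest in Postn P7, although for Pcolce only the comparison of these 2 groups passed the test. Adamts14, a relative of Adamts2 with N-proteinase activity, fell from 89.9 and 89.0 CPM to 20.8, 35.6 and 33.7 CPM (-1.57 ± 0.20, adjusted p = 0.0013). Tll2, a relative of Bmp1, was at 55.9 and 48.3 CPM in Tcf21 P7. It was lower both at P30 (-0.86 ± 0.15, adjusted p = 0.0040) and in Postn P7 (-1.30 ± 0.17, adjusted p = 0.0063). The calls of Pcolce2 and Tll2 between the lineages were lost without either Tcf21 P7 library, with adjusted p of up to 0.13 and 0.071, and Tll2 between the ages was lost without Tcf21 P7 replicate 1 (adjusted p = 0.057).

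Of 15 further genes for collagen modification and folding, 2 were higher and 4 were lower in Tcf21 P30 than in Tcf21 P7. This compares with 16.7% and 15% of all genes, and the median of the list was -0.27. Colgalt2, a collagen galactosyltransferase, rose by 0.77 ± 0.16 (adjusted p = 0.0091). P3h4, a non-catalytic member of the prolyl 3-hydroxylase family (-0.49 ± 0.15, adjusted p = 0.036), Fkbp14, an isomerase related to Fkbp10 (-0.46 ± 0.14, adjusted p = 0.038), and P3h2, a prolyl 3-hydroxylase (-0.44 ± 0.12, adjusted p = 0.026), fell. Ppib, which encodes cyclophilin B, the partner of Crtap in the prolyl 3-hydroxylation complex, had about the same decrease in both comparisons with Tcf21 P7, -0.38 ± 0.09 at P30 (adjusted p = 0.011) and -0.38 ± 0.09 in Postn P7 (adjusted p = 0.038), and these comparisons share the Tcf21 P7 libraries. Between the lineages 2 of 15 were lower, Ppib and Colgalt2 (-0.94 ± 0.18, adjusted p = 0.018), against 5.49% of all genes. All calls of this list in both comparisons with Tcf21 P7 were lost without Tcf21 P7 replicate 1, and likewise without Tcf21 P7 replicate 2. Between Postn P7 and Tcf21 P30, 2 of 15 were higher and 4 lower, against 11.7% and 12.5% of all genes. Colgalt2 (-1.71 ± 0.17), P3h2 (0.91 ± 0.12), the lysyl hydroxylase gene Plod2 (0.63 ± 0.11) and the chaperone gene Mesd (-0.61 ± 0.09) changed most.

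Of 14 genes for the export of procollagen from the endoplasmic reticulum, 2 were higher and 4 lower at P30 than at P7 within the Tcf21 lineage. The shares over all genes were 16.7% higher and 15% lower. The decreases included the 3 KDEL receptor genes, whose products return chaperones such as HSP47 and protein disulfide isomerase to the endoplasmic reticulum. They were Kdelr1 (-0.98 ± 0.29, adjusted p = 0.046), Kdelr2 (-0.54 ± 0.11, adjusted p = 0.0078) and Kdelr3 (-0.48 ± 0.14, adjusted p = 0.035). Preb, which activates the small GTPase of coat assembly, was among those higher (0.43 ± 0.10, adjusted p = 0.012). All calls of this list were lost without Tcf21 P7 replicate 1, and likewise without Tcf21 P7 replicate 2. Kdelr1 was also lost with library size alone and without Tcf21 P30 replicate 2 or 3. Kdelr3 was also lost with upper-quartile factors and without Tcf21 P30 replicate 3. None of the 14 was called between the lineages or between Postn P7 and Tcf21 P30, where 12% and 24.2% of all genes were.

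Across the 7 libraries, the genes whose log2 level was most like that of P4ha3, among 9987 genes with at least 10 CPM on average, were Sept11 (Pearson r = 0.999), Soat1 (0.998), Gsto1 (0.998), Synpo (0.997) and Tro (0.996). These genes share the step between the ages, with Synpo at 293 to 327 CPM in the day 7 libraries and at 128 to 148 CPM in Tcf21 P30. Most like Serpinh1 were Dennd4b (0.994), Uba1 (0.991), Col6a2 (0.991), Man1c1 (0.990) and Dpp3 (0.988), which were highest in Tcf21 P7 and lowest in Postn P7. The 7 points fall into 3 groups and share their library and scaling, so these coefficients describe the pattern over groups. Among the 10 genes, Fkbp10 and Crtap were most alike (r = 0.977), followed by P4hb and Adamts2 (0.959), and P4ha1 and P4ha3 most opposed (-0.927).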

How the data were processed

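RNA of sorted cardiac fibroblasts was sequenced in 7 libraries. The authors deposited raw counts per gene symbol for each library, with no normalization. STAR and GRCm38 are named in the submitters' processing notes, and the sources used here do not name the counter, the annotation release or the strand setting. Counts were fitted in R 4.3.3 with edgeR 4.0.16 (filterByExpr, TMM scaling, all 7 libraries with a mean per group, robust quasi-likelihood F-test). Benjamini-Hochberg adjustment ran over 17636 genes, and a gene was called at an adjusted p under 0.05. Each SE was derived from the log2 change and its F, and thus restates the test. Alternatives changed the scaling, the filter, the tool (limma 3.58.1, DESeq2 1.42.0), the groups in the fit and the libraries left out. Exon lengths and coordinates came from GENCODE M21 (GRCm38), and promoter sequences from RefSeq (GRCm38.p6), which held 8 of the 10 genes. The procedure was tested on simulated counts. The 10 genes and all lists were chosen with earlier results of these data known. Genes named besides the 10 were called list members, at most 4 of the largest change per list and comparison, with Col1a2, Col3a1, Col5a1, Col5a3, Ppib and Pdgfrb added after their values were seen, and the 5 genes most like Serpinh1 and P4ha3 (pseudocount 0.5 CPM).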

Additional observations from a re-analysis of the deposited data

How the results depend on the processing

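Each value was recomputed with other scaling, tools, filters and libraries left out, and leaving out both endothelial-rich libraries was chosen after seeing the data. P4ha3 kept its call between the ages in all 15 alternatives, and P4ha1, P4ha3 and Pcolce kept theirs for Postn P7 against Tcf21 P30 in all 15. Between Postn P7 and Tcf21 P7, the genes called numbered 2118 in the main analysis, 3442 with no filter, 3750 without both endothelial-rich libraries and 111 to 1106 with 1 library left out (111 without Tcf21 P7 replicate 2). Of the 10 genes, 0 were called in that comparison with upper-quartile factors and with any 1 library left out, and 2 with no filter, with DESeq2, with only the 2 groups in the fit and without the endothelial-rich libraries. Between the ages 2418 to 6063 genes and 1 to 5 of the 10 were called with 1 library left out. Between Postn P7 and Tcf21 P30 these ranges were 2810 to 5072 and 3 to 5, and 5 of the 10 were called without the endothelial-rich libraries.

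Values that turned their sign were all uncalled, and the cause was not tested. In Postn P7 against Tcf21 P30, P4hb was 0.012 with upper-quartile factors, 0.094 with library size alone, 0.0016 with no filter, 0.00032 with only the 2 groups, 0.030 without the endothelial-rich libraries and -0.14 to 0.11 with 1 library left out. Adamts2 was 0.037 with library size alone and -0.27 to 0.11 with 1 library left out. In Postn P7 against Tcf21 P7, Bmp1 was 0.061 with library size alone, 0.063 without the endothelial-rich libraries and -0.18 to 0.056 with 1 library left out, and P4ha3 was -0.053 to 0.40. P4ha2 was -0.062 to 0.18 between the ages.

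With the replicate number as a block, the genes called numbered 1556 between the lineages, 4553 between the ages and 3348 between Postn P7 and Tcf21 P30, and 1, 4 and 3 of the 10 genes were called. Deviations of same-numbered libraries correlated at 0.085 between the lineages, 0.045 to 0.069 between the ages and 0.34 to 0.37 between Postn P7 and Tcf21 P30, where replicate 1 of both groups is an endothelial-rich library. The labels give no shared origin and only 2 numbers are shared, so the libraries were not treated as paired. A library group of 1 left by an omission was assumed to vary like the others. Of the 10 genes, P4ha3 in Tcf21 P30 rests on the fewest counts, 63 to 126 a library.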

Other observations

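Genes of general protein folding in the endoplasmic reticulum and targets of hypoxia-inducible factors were read beside the collagen genes, since P4hb folds many secreted proteins and P4ha1 is a known hypoxia target. Of 20 general folding and stress genes, 5 were higher and 1 was lower in Tcf21 P30 than in Tcf21 P7, with a median of 0.11. Among all genes tested 16.7% were higher and 15% lower between the ages. The shares were 6.52% higher and 5.49% lower in Postn P7 than in Tcf21 P7. Dnajc3, which encodes a co-chaperone of BiP, rose by 0.57 ± 0.11 (adjusted p = 0.0072), Hsp90b1, the endoplasmic HSP90, by 0.55 ± 0.09 (adjusted p = 0.0030) and the stress-induced Sdf2l1 by 0.54 ± 0.14 (adjusted p = 0.021). Manf, a secreted stress response protein gene, went down (-0.52 ± 0.07, adjusted p = 0.0016). Between the lineages Sdf2l1 (-0.72 ± 0.15, adjusted p = 0.026) and Manf (-0.35 ± 0.08, adjusted p = 0.033) were the 2 of 20 that were lower in Postn P7. Manf held this call in 6 of 14 alternatives and lost it with any 1 library left out, and Sdf2l1 held it in 10 of 14 and lost it without Postn P7 replicate 2 or either Tcf21 P7 library and with the replicate number as a block. Without Tcf21 P7 replicate 1 the list held 1 call between the ages.

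Of 14 hypoxia targets, 3 were higher and 1 was lower at P30 than at P7, with a median of 0.13. The shares over all genes were 16.7% and 15% between the ages, and 6.52% and 5.49% between the lineages. Adm, the adrenomedullin gene, rose from a mean of 51.8 CPM to 133 CPM (1.36 ± 0.15, adjusted p = 0.00057). Ndrg1 rose by 0.92 ± 0.27 (adjusted p = 0.039) and Vegfa by 0.50 ± 0.13 (adjusted p = 0.019). Ndrg1 stood at 131 CPM in the endothelial-rich Tcf21 P30 replicate 1, against 72.5 and 78.5 CPM in replicates 2 and 3. Its difference was 0.61 to 1.07 over the alternatives, and its call was lost with only the 2 groups in the fit. Egln3, an oxygen-sensing prolyl hydroxylase gene, fell by 0.71 (SE 0.15, adjusted p = 0.0088). Without Tcf21 P7 replicate 1 the list held 1 call. Between the lineages 1 of 14 was higher in Postn P7, Kdm3a (0.46 ± 0.11, adjusted p = 0.035), and 1 lower, Adm (-0.82 ± 0.17, adjusted p = 0.022), and each of these 2 calls was lost without any 1 of the 4 libraries of day 7.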
